A study of Homo sapiens with 4 samples.

Results

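Expression of 10 genes of blood clotting was followed through 4 RNA sequencing libraries of HepG2, a human hepatocellular carcinoma cell line that keeps much of the secretory programme of the liver. The genes were FGA, FGB and FGG, which encode the 3 chains of fibrinogen, the factors F2, F5, F7, F10 and F12, and PLG and PROC. They were taken by symbol, which gave 10 of the 24462 genes counted, and each symbol had 1 entry in every library. Cells had been given DMSO, the solvent of the drug, or PD0332991, a small-molecule inhibitor of the cell cycle kinases CDK4 and CDK6, or had been transfected with scrambled siRNA or with siRNA against CDK4 and CDK6 together (CDK4/6 KD). No agent besides these, no genetic change beyond those of the cell line and no common treatment is named for the groups. The sources used here do not give the dose or exposure of the drug, nor how long after transfection RNA was taken for sequencing. Each condition had 1 library of 1 cell line, so the differences below could not be checked against replicates, and p-values are left out.

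Fibrinogen is secreted by hepatocytes as a dimer of 3 different chains, and thrombin cleaves it into the monomer of fibrin, the mesh of a clot. Vitamin K-dependent proteases made in the liver (factors VII and X, prothrombin and protein C) are secreted as inactive precursors, which are cut in turn once tissue factor is exposed. Protein C limits the cascade by inactivating factors V and VIII, and plasmin, made from plasminogen, dissolves fibrin. In the liver the fibrinogen genes belong to the acute phase response driven by interleukin 6, and many clotting genes depend on hepatocyte factors such as HNF4 and C/EBP proteins.

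In the GRCh38 annotation the 3 fibrinogen genes share a segment of chromosome 4 (154562956 to 154612967), with FGB on the plus strand and FGA and FGG on the minus strand. F7 (113105788 to 113120681) and F10 (113122814 to 113149529) follow each other on the plus strand of chromosome 13. F2 lies on chromosome 11 (46719180 to 46739506), F5 on chromosome 1 (169514166 to 169586588), F12 on chromosome 5 (177402140 to 177409576), PLG on chromosome 6 (160702238 to 160753315) and PROC on chromosome 2 (127418427 to 127429246). The submitters' processing notes name another build, hg19, so these positions serve only to place the genes.

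The promoters of the genes with the largest fold changes after CDK4/6 KD (FGA, FGB, FGG and F7) and of F2, whose fold change was small, are shown for comparison. They were picked after the values were seen. Each is the 250 bases before the most upstream RefSeq start of the gene (GRCh38.p14), written 5′ to 3′ on the strand of the gene, and capitals mark matches to the motifs searched. FGA lies at chr4:154590743-154590992 (minus strand), FGB at chr4:154562730-154562979 (plus), FGG at chr4:154612657-154612906 (minus), F7 at chr13:113105541-113105790 (plus) and F2 at chr11:46718963-46719212 (plus).
FGA: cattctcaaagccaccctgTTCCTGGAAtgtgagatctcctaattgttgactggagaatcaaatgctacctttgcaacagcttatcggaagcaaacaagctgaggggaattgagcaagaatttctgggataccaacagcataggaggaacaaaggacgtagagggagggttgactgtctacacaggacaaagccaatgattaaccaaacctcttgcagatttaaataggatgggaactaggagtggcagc
FGB: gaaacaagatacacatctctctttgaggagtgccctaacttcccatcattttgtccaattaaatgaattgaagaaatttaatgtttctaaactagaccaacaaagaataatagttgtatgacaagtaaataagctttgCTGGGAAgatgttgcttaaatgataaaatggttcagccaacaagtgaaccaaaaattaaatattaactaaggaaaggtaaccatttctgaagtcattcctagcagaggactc
FGG: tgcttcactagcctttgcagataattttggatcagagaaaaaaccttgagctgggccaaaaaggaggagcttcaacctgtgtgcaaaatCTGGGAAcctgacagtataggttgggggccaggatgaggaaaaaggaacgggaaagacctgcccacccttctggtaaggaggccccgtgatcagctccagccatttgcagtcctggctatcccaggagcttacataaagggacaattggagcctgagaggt
F7: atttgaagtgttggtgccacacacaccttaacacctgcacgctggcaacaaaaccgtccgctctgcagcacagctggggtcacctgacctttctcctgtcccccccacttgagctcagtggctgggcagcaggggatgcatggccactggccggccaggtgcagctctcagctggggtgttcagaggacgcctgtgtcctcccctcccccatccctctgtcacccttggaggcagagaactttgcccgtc
F2: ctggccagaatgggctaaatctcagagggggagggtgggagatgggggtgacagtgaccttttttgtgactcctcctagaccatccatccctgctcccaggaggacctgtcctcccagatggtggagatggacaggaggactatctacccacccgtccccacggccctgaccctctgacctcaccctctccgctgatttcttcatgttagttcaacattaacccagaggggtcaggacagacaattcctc

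The 5 motifs were searched on both strands of all 10 promoters, which were all found in RefSeq, and of 27305 promoters of the same length. CTGGGAA, the core of interleukin 6 response elements, was found on the strand of the gene in FGB at -112 and FGG at -161 bases from the start, and on the opposite strand in F10 and PLG. That made 4 of 10 genes against 9.33% of promoters. TTCNNNGAA, the palindrome bound by STAT3, was in FGA and F10, which is 2 of 10 genes against 6.76%. CAAAGTCCA (HNF4, 0.289% of promoters), TTNNGCAAT (C/EBP, 2.14%) and TATAAA (the TATA box, 11.2%) matched none of the 10, and the F7 and F2 windows held no match to any of the 5. Matches did not overlap each other. Only these strings were searched, so a window without a match can still hold a variant of a site. No match in 10 genes says little where a string is found in 0.289% of promoters. Letters in a window describe the sequence and say nothing of binding in these cells.

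The libraries held 8983848 to 11176880 reads, and 12780 to 13257 genes had at least 10 reads. They were QuantSeq 3′ libraries, in which a transcript gives reads near its poly(A) end, so that counts were not divided by transcript length. Levels are given as CPM, reads per 1000000 reads of the library, after correction of library size with TMM factors, which ran from 0.957 to 1.03. CDK4 was at 354 CPM with scrambled siRNA and 71.9 CPM in CDK4/6 KD (fold change: 0.203), and CDK6 at 536 and 129 CPM (fold change: 0.241). With DMSO and PD0332991, CDK4 was at 301 and 257 CPM and CDK6 at 515 and 479 CPM. The hepatocyte markers listed, 20 in number, summed to 23097 to 29520 CPM, with 1 marker at 0 in the scrambled siRNA library and none at 0 in the others. Markers of other cells in the liver were at different levels. Endothelial markers summed to 1.06 to 1.98 CPM with CDH5 and KDR at 0, and megakaryocyte and platelet markers to 5.05 to 8.86 CPM with PF4, PPBP and GP9 at 0. Macrophage markers summed to 509 to 1035 CPM, of which LYZ made 501 to 1022 CPM, with MARCO, CLEC4F, C1QA and C1QB at 0, and stellate cell and fibroblast markers to 129 to 253 CPM, mostly ACTA2 at 88.4 to 174 CPM. Keratinocyte markers summed to 239 to 426 CPM over 26 genes, of which 2 to 7 were at 0, and most of the sum was SFN, KRT10 and DMKN, which were counted in all 4 libraries. The 6 proliferation markers summed to 3874 CPM with DMSO, 488 with PD0332991, 2796 with scrambled siRNA and 1178 in CDK4/6 KD.

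The 10 clotting genes together took 0.160% of the reads with DMSO, 0.243% with PD0332991, 0.134% with scrambled siRNA and 0.328% in CDK4/6 KD. By CPM, FGA, FGB, FGG and F2 were the 4 highest in every library, PROC and F5 followed, F10 and F7 came next, and F12 and PLG were the lowest. Within the first 4 the order differed between libraries. FGG led with DMSO and PD0332991, F2 with scrambled siRNA and FGA in CDK4/6 KD. F7 was below F10 in 3 libraries and above it in CDK4/6 KD. Of 36 neighbouring pairs in these orders, 4 had a ratio of reads whose 95% counting interval held 1, namely F12 and PLG with DMSO and with scrambled siRNA, F2 and FGA with PD0332991, and FGB and FGA with scrambled siRNA. The plot of levels by library shows this order on a log scale.

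**Figure D1:**
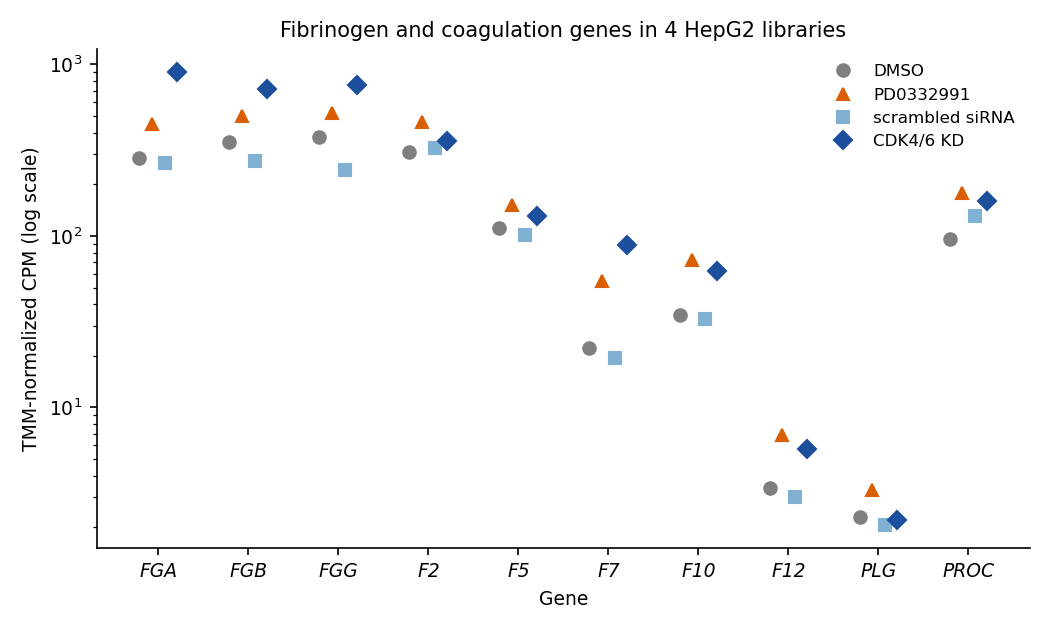
TMM-normalized CPM (log scale) of the 10 clotting genes in the DMSO, PD0332991, scrambled siRNA and CDK4/6 KD libraries, 1 point per library. FGA, FGB and FGG stand between 243 and 377 CPM in the controls and between 718 and 905 CPM in CDK4/6 KD, while PLG stays between 2.06 and 3.29 CPM.

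The first question was how the clotting genes stood when CDK4 and CDK6 were silenced. In CDK4/6 KD against scrambled siRNA, all 10 genes had a fold change above 1, and FGA, FGB, FGG and F7 were at least 2-fold higher. That is 4 of 10 genes, against 9.19% of 13617 genes tested. Of the 7418 genes averaging 200 reads or more, as these 4 do, 3.13% were 2-fold higher. None of the 10 was 2-fold lower, against 7.62% of all genes. The median log2 fold change was 0.92 over the clotting genes and -0.0036 over all genes tested. More or fewer cells expressing a gene cannot be told from more or less of its RNA per cell in such bulk libraries. Beside each fold change stands its exact 95% Clopper-Pearson interval, taken from how the reads of the gene divided between both libraries. The intervals cover counting error only, take no account of PCR copies, and compare libraries rather than conditions.

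FGA, which encodes the fibrinogen alpha chain, had 2617 reads (286 CPM) with DMSO, 4108 (451 CPM) with PD0332991, 2860 (267 CPM) with scrambled siRNA and 10241 (905 CPM) in CDK4/6 KD. FGB, the beta chain, had 3205 (351 CPM), 4535 (498 CPM), 2929 (274 CPM) and 8122 reads (718 CPM) in the same order. FGG, the gamma chain, had 3449 (377 CPM), 4769 (524 CPM), 2596 (243 CPM) and 8601 reads (760 CPM). For each chain CDK4/6 KD was the highest library, PD0332991 the next and scrambled siRNA the lowest. In CDK4/6 KD against scrambled siRNA the fold change was 3.38 (3.25 to 3.53) for FGA, 2.62 (2.51 to 2.74) for FGB and 3.13 (2.997 to 3.27) for FGG. By number of reads FGA went from rank 677 of all genes with scrambled siRNA to rank 117 in CDK4/6 KD.

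Because the chains are assembled together, they were also summed. Fibrinogen as a whole stood at 1015 CPM with DMSO, 1473 with PD0332991, 784 with scrambled siRNA and 2382 in CDK4/6 KD, which is 0.102%, 0.149%, 0.0750% and 0.245% of the reads. The sum was 3.04-fold higher (2.97 to 3.12) in CDK4/6 KD than with scrambled siRNA. The DMSO library was itself above the scrambled siRNA library, and against DMSO the CDK4/6 KD sum was 2.35-fold higher. The chains did not keep their proportions. FGA gave 28.2% of fibrinogen reads with DMSO (Wilson 95% interval 27.3 to 29.2), 30.6% with PD0332991 (29.9 to 31.4), 34.1% with scrambled siRNA (33.1 to 35.1) and 38.0% in CDK4/6 KD (37.4 to 38.6). Its share was thus higher in each inhibited library than in its control, and higher in both siRNA libraries than in the DMSO and PD0332991 libraries. FGG gave 37.2%, 35.6%, 31.0% and 31.9% in the same order, highest in the DMSO and PD0332991 libraries. FGB gave 34.6%, 33.8%, 34.9% and 30.1%, lowest in CDK4/6 KD (29.6 to 30.7).

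**Figure D2:**
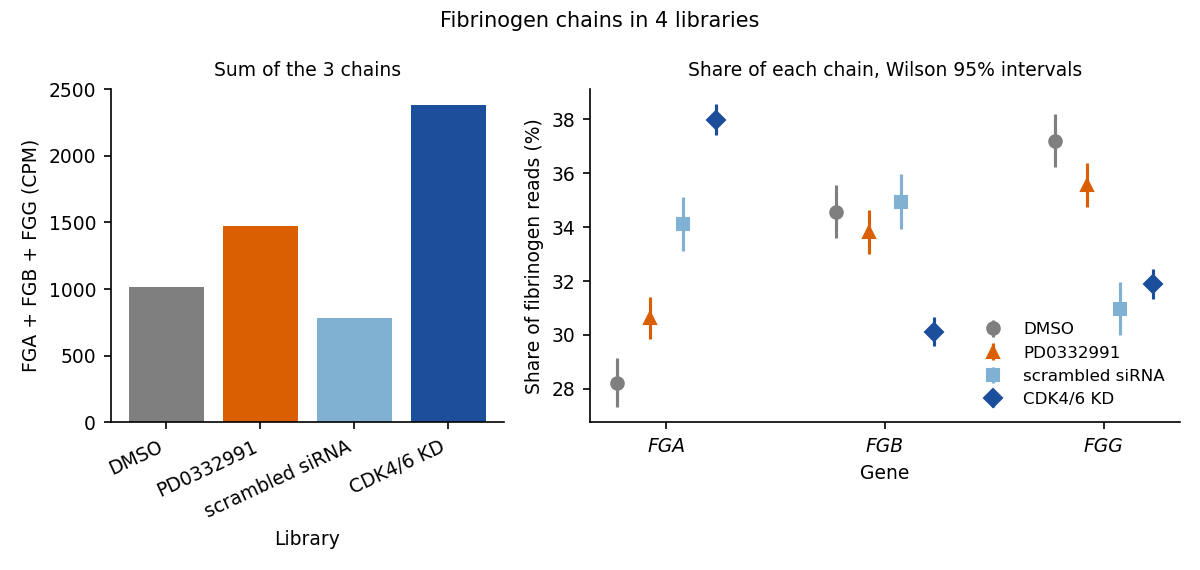
Left, the sum of FGA, FGB and FGG in CPM, 1 bar per library. Right, the share of each chain in the fibrinogen reads (%), points with Wilson 95% intervals that cover counting error only and an axis that does not start at 0; the share of FGA runs from 28.2% with DMSO to 38.0% in CDK4/6 KD.

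The fold changes were uneven among the factors. F7 encodes factor VII, the protease that binds tissue factor to start clotting. It had 204 reads (22.3 CPM) with DMSO, 500 (54.9 CPM) with PD0332991, 209 (19.5 CPM) with scrambled siRNA and 998 (88.2 CPM) in CDK4/6 KD. Both controls were below both inhibited libraries, and the CDK4/6 KD fold change of 4.51 (3.88 to 5.27) was the largest of the 10 genes. F10, its neighbour on chromosome 13, encodes factor X, whose active form makes thrombin. It had 317 (34.7 CPM), 659 (72.4 CPM), 352 (32.9 CPM) and 702 reads (62.0 CPM) in the same order. Its fold change in CDK4/6 KD was 1.88 (1.66 to 2.15), and the intervals of F7 and F10 did not overlap. In the annotation the 3′ end of F10 lies within 98 bases that an antisense gene on the other strand shares, and the strand setting of the counts is not given, so that reads of the pair cannot be told apart. F10-AS1, an antisense gene elsewhere in F10, had 1, 12, 3 and 6 reads.

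F2 encodes prothrombin, the precursor of thrombin. It had 2829 reads (310 CPM) with DMSO, 4212 (463 CPM) with PD0332991, 3466 (324 CPM) with scrambled siRNA and 4054 (358 CPM) in CDK4/6 KD. Although its control levels were near those of the fibrinogen chains, F2 was 1.11-fold higher (1.06 to 1.16) in CDK4/6 KD. F5 encodes factor V, the cofactor of factor X in making thrombin. It had 1016 (111 CPM), 1380 (152 CPM), 1078 (101 CPM) and 1478 reads (131 CPM), a fold change of 1.30 (1.20 to 1.40) in CDK4/6 KD. F12 encodes factor XII, which starts the contact pathway. Its 31 (3.39 CPM), 63 (6.92 CPM), 32 (2.99 CPM) and 65 reads (5.74 CPM) gave a fold change of 1.91 with a wide interval of 1.24 to 3.03. F12 shares 6373 bases with GRK6 on the other strand, away from its 3′ end.

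PROC encodes protein C, the anticoagulant protease. It had 872 reads (95.4 CPM) with DMSO, 1616 (177 CPM) with PD0332991, 1405 (131 CPM) with scrambled siRNA and 1815 (160 CPM) in CDK4/6 KD. Its fold change of 1.22 (1.14 to 1.31) in CDK4/6 KD was smaller than the 1.38 (1.26 to 1.499) between the control libraries. PLG encodes plasminogen, the precursor of plasmin. With 21 (2.30 CPM), 30 (3.29 CPM), 22 (2.06 CPM) and 25 reads (2.21 CPM), no difference was detectable at this depth (fold change: 1.07, 0.581 to 2.00). Its near copies PLGLB1 (2, 1, 2 and 5 reads) and PLGLB2 (2, 6, 6 and 10 reads) were lower still, and how shared reads were assigned is not given.

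Of the 10 genes, 9 had a counting interval wholly above 1 in CDK4/6 KD, against 30.0% of all genes tested, and the exception was PLG. The 4 genes past 2-fold had their whole interval past 2-fold, against 3.33% of genes. At 1.5-fold F10 and F12 joined them, which made 6 of 10 against 19.4%. F10 and F12 also passed 2-fold when libraries were scaled to total counts alone. With the DMSO library as control in place of scrambled siRNA, FGA, FGB, FGG and F7 were again the 4 genes at least 2-fold higher, against 8.04% of genes, with fold changes of 3.16, 2.05, 2.01 and 3.94. PLG was then at 0.962, so that 9 of the 10 were above 1. In that comparison transfection differs between the libraries along with the silencing of CDK4 and CDK6.

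**Figure D3:**
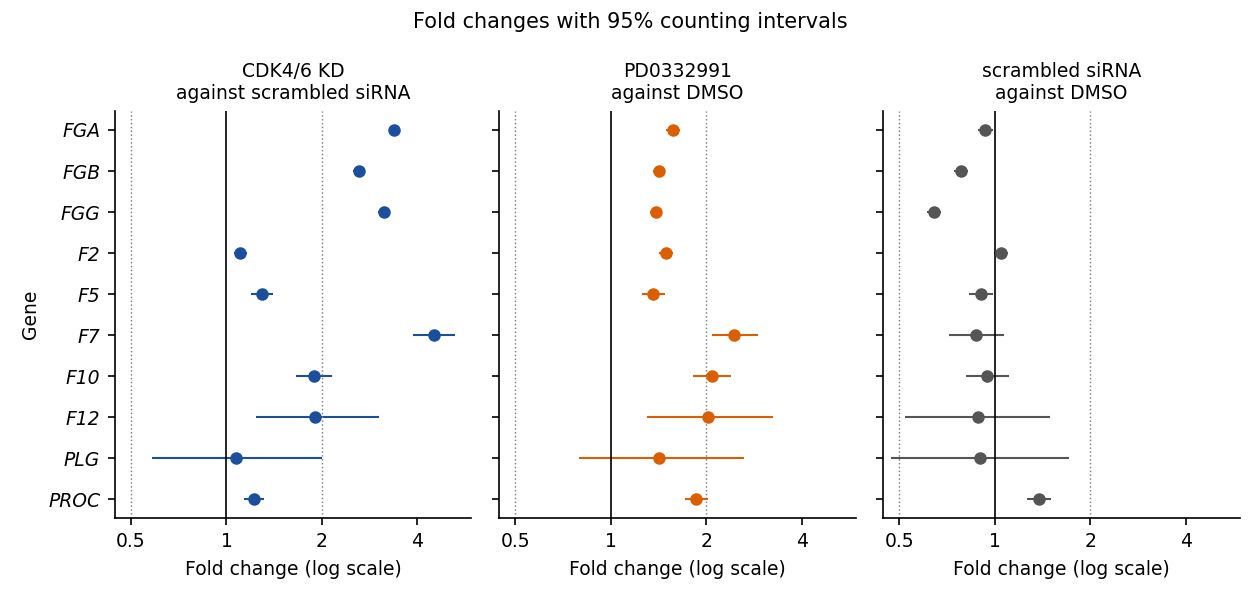
Fold change (log scale) of the 10 clotting genes in CDK4/6 KD against scrambled siRNA, PD0332991 against DMSO and scrambled siRNA against DMSO, with 95% Clopper-Pearson intervals that cover counting error only; dotted lines mark 2-fold. In CDK4/6 KD the genes spread from 1.07 (PLG) to 4.51 (F7), and with PD0332991 from 1.36 (F5) to 2.46 (F7).

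The second question was how the same genes stood when the kinases were inhibited with PD0332991. All 10 were above DMSO, and F7, F10 and F12 were at least 2-fold higher. That is 3 of 10 genes, against 7.49% of 13443 genes tested, and against 1.72% of the 6871 genes averaging 200 reads or more, which F12 does not. None was 2-fold lower, against 7.07%. The median log2 fold change was 0.62 over the clotting genes and 0.018 over all genes. F7 had the largest fold change, 2.46 (2.09 to 2.91), and was the only one of the 10 with its whole interval past 2-fold, against 1.68% of genes. F10 was at 2.08 (1.82 to 2.39) and F12 at 2.02 (1.31 to 3.24), and F12 fell below 2-fold, to 1.91, with a pseudocount of 5 reads.

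PROC was 1.86-fold higher with PD0332991 (1.71 to 2.02), F2 1.49-fold (1.42 to 1.57) and F5 1.36-fold (1.26 to 1.48). The fibrinogen chains stood close to F2, with FGA at 1.58 (1.4995 to 1.66), FGB at 1.42 (1.36 to 1.49) and FGG at 1.39 (1.33 to 1.45), and their sum at 1.45 (1.41 to 1.49). PLG, with 30 against 21 reads, was at 1.42 (0.794 to 2.63), the only interval of the 10 that held 1. The other 9 lay above 1, against 28.1% of genes. At 1.5-fold FGA and PROC joined, which made 5 of 10 against 16.8%. Against the scrambled siRNA library, FGG, F7, F10 and F12 were 2-fold higher, which is 4 of 10 against 10.7%, with fold changes of 2.16, 2.81, 2.20 and 2.29.

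Markers of other cell types differed between the libraries as well. Their counts stand beside the shares of all genes tested past 2-fold. Upward these were 9.19% in CDK4/6 KD, 7.49% with PD0332991 and 5.30% in scrambled siRNA against DMSO. Downward they were 7.62%, 7.07% and 6.64%. Of the keratinocyte markers, 9 of 12 tested were at least 2-fold higher with PD0332991 than with DMSO and 1 was lower. Of the 9, only KRT17 (139 against 15 reads) reached 10 reads in both libraries. The rest were placed among the genes tested by the PD0332991 library alone. In scrambled siRNA against DMSO 8 of 11 were higher and none lower, and of the 8 only SFN reached 10 reads in both libraries. In CDK4/6 KD against scrambled siRNA 3 of 11 were higher and 1 lower. KRT5, which encodes a keratin of basal epidermis, had 2 reads with DMSO, 113 with PD0332991, 13 with scrambled siRNA and 43 in CDK4/6 KD. The summed level of the list was 239 CPM with DMSO, 291 with PD0332991, 426 with scrambled siRNA and 246 in CDK4/6 KD, with 7, 2, 6 and 5 of 26 genes at 0. SFN, a large part of that sum, was at 134 CPM with DMSO and 61.8 CPM with PD0332991. KRT14 (249 against 9 reads), KRT6A (150 against 9) and SPRR1A (114 against 4) were higher with PD0332991. The list's median log2 fold change was 3.50 with PD0332991, 1.51 in scrambled siRNA against DMSO and -0.079 in CDK4/6 KD. Of the stellate cell and fibroblast markers, 2 of 6 were at least 2-fold higher with PD0332991 than with DMSO (COL1A2, and DCN with 18 against 0 reads) and none lower. DCN reached 10 reads with PD0332991 alone, which placed it among the genes tested. In CDK4/6 KD 1 of 3 was higher, COL1A1, and in scrambled siRNA against DMSO 4 of 5 were lower. Of the 4, COL3A1 (1 against 30 reads) and PDGFRB (1 against 11) were placed among the genes tested by the DMSO library alone. The list summed to 137 CPM with DMSO, 253 with PD0332991, 129 with scrambled siRNA and 149 in CDK4/6 KD, with 2, 0, 3 and 2 of 8 genes at 0. The part of these markers in the clotting genes' differences was not tested. Of the hepatocyte markers, in CDK4/6 KD 9 of 19 tested were at least 2-fold higher and none lower. Intervals lay above 1 for 17 and below it for 2, and the median log2 fold change was 0.996, beside 0.92 for the clotting genes. Within this comparison ITIH1 (149 against 2 reads), ITIH4 (29 against 8) and CYP2E1 (21 against 0) reached 10 reads in CDK4/6 KD alone. That library alone placed them among the genes tested. With PD0332991 3 of 18 were higher and none lower, while 13 intervals lay above 1 and 4 below it. The median was 0.47, beside 0.62 for the clotting genes. Of the 3, ITIH3 had 343 against 142 reads. Within that comparison ITIH1 (35 against 3) and ITIH4 (15 against 2) reached 10 reads with PD0332991 alone. ALB, which encodes albumin, was 2.01-fold higher in CDK4/6 KD and at 0.919 with PD0332991. Hepatoblast and fetal liver markers had medians of 0.07 and -0.01, with 1 of 7 (KRT19) lower at 2-fold in CDK4/6 KD and none of 8 past 2-fold with PD0332991. Of the 6 proliferation markers, 3 (TOP2A, CCNB1 and RRM2) were at least 2-fold lower in CDK4/6 KD and 6 with PD0332991 (medians -1.01 and -2.88), and their part in the clotting genes' differences was not tested.

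**Figure D4:**
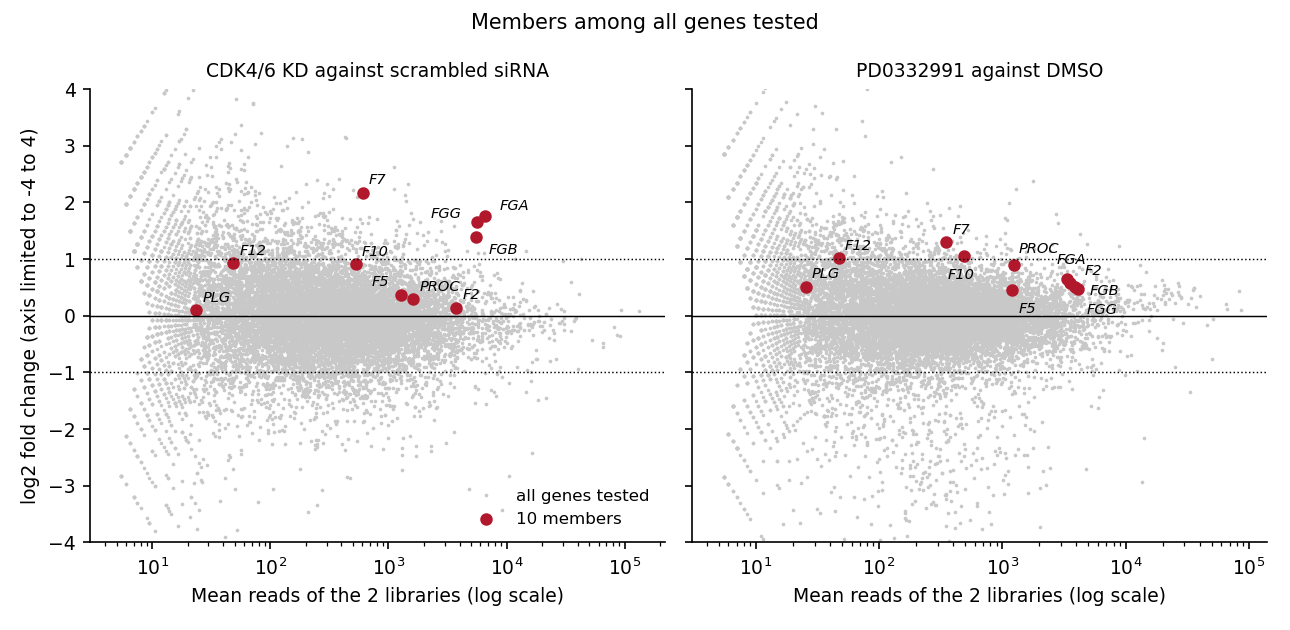
log2 fold change against the mean reads of the libraries compared (log scale), for all genes tested (grey) and the 10 clotting genes (red), in CDK4/6 KD against scrambled siRNA and PD0332991 against DMSO; dotted lines mark 2-fold and the axis is limited to -4 to 4. The fibrinogen chains stand at log2 fold changes of 1.39 to 1.76 in CDK4/6 KD and of 0.47 to 0.66 with PD0332991.

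F7 had the largest fold change in both inhibited libraries. Set side by side, the interval of the CDK4/6 KD fold change lay above that of the PD0332991 fold change for FGA, FGB, FGG and F7. It lay below for F2 and PROC, and the intervals overlapped for F5, F10, F12 and PLG. The share of all genes with intervals apart in this way was not counted. The split therefore describes these genes and cannot be called particular to them. For PROC the intervals overlapped once both libraries were set against the same control, at 1.68 (1.55 to 1.82) and 1.86 (1.71 to 2.02) against DMSO and at 1.22 (1.14 to 1.31) and 1.35 (1.26 to 1.45) against scrambled siRNA. The kinds of treatment differ and their doses cannot be matched, and the difference between the fold changes has no replicate check. Both inhibited libraries were above both control libraries for 9 of the 10 genes, against 21.3% of 13961 genes, a count looked at after the values were seen. PLG was the exception, with 2.21 CPM in CDK4/6 KD and 2.30 CPM with DMSO.

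The control libraries, given DMSO or transfected with scrambled siRNA, show how far these cells without CDK4/6 inhibition differed. With 1 library each, effects of transfection or solvent cannot be told apart from the spread between cultures. In scrambled siRNA against DMSO, none of the 10 clotting genes was 2-fold higher or lower, against 5.30% and 6.64% of 13303 genes (1.62% higher among the 7139 averaging 200 reads or more). PROC was above DMSO with its whole interval, which is 1 of 10 against 28.3%. FGA (0.933, 0.885 to 0.984), FGB (0.780, 0.742 to 0.821), FGG (0.643, 0.611 to 0.677) and F5 (0.906, 0.831 to 0.988) lay below it, which is 4 of 10 against 28.0%. FGG alone was 1.5-fold lower, against 15.7% of genes. The intervals of F2 (1.05), F7 (0.875), F10 (0.948), F12 (0.883) and PLG (0.897) held 1. The median log2 fold change was -0.15 over the clotting genes and 0.0088 over all genes. The sum of the fibrinogen chains was at 0.772 (0.750 to 0.796), so that the scrambled siRNA library was below the DMSO library as well as below CDK4/6 KD.

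Among 8146 genes with at least 100 reads in every library, those whose centred log2 CPM profile over the 4 libraries was nearest to the fibrinogen sum were SERPINA4, C12orf57, CCHE1, PCOLCE and CCDC170. SERPINA4, which encodes kallistatin, a plasma inhibitor of tissue kallikrein made in the liver, was the nearest, at a root-mean-square distance of 0.0267 on the log2 scale. It stood at 17.3 CPM with DMSO, 24.4 with PD0332991, 12.8 with scrambled siRNA and 38.7 in CDK4/6 KD. The other 4 lay at 0.0864, 0.101, 0.111 and 0.112. With 4 libraries such likeness is a description only.

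The other genes of the clotting system were counted in lists, whose counts stand beside the shares of all genes past 2-fold given above. Upward these were 9.19% for CDK4/6 KD and 7.49% for PD0332991, and downward 7.62% and 7.07%. A count of 1 gene among 12 tested is near these shares. Of 10 other coagulation factors, 5 reached 10 reads in either library in CDK4/6 KD and 4 of these were at least 2-fold higher. With PD0332991 5 did so and 2 were higher, and none was lower in either. PROZ, which encodes protein Z, the cofactor of an inhibitor of factor X, had 23 reads with DMSO, 78 with PD0332991, 22 with scrambled siRNA and 106 in CDK4/6 KD. It was 4.47-fold higher (2.86 to 7.57) in CDK4/6 KD and 3.36-fold (2.11 to 5.68) with PD0332991. F11, which encodes factor XI of the intrinsic pathway, had 128, 242, 122 and 319 reads and fold changes of 2.47 and 1.89. KNG1, which encodes kininogen of the contact pathway, had 14, 15, 0 and 26 reads, at least 8.19-fold higher in CDK4/6 KD than a floor of 3 reads in the scrambled siRNA library. The remaining gene of the 4 was F8, which encodes factor VIII, with 20 against 5 reads (fold change: 3.51, 1.38 to 12.9), and the 2 higher with PD0332991 were PROZ and KLKB1 (18 against 6 reads). Within these comparisons KNG1, F8 and KLKB1 reached 10 reads only in the library where they were higher, and that library alone placed them among the genes counted. KNG1, F8 and KLKB1 were named after their values were seen. F9 had 3 reads with DMSO and 0 in the other libraries, which allows up to 3 reads in each.

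Coagulation inhibitors and protein C cofactors had 1 of 12 tested genes higher and 1 lower at 2-fold in each comparison (median log2 fold change 0.60 in CDK4/6 KD and 0.32 with PD0332991). SERPINC1, which encodes antithrombin, had 434, 1038, 635 and 1121 reads with DMSO, PD0332991, scrambled siRNA and CDK4/6 KD. Its fold change was 1.67 (1.51 to 1.84) in CDK4/6 KD and 2.40 (2.14 to 2.69) with PD0332991. The remaining genes past 2-fold had few reads and were named after their values were seen. They were SERPING1 (36 against 6 reads) and TFPI2 (7 against 29) in CDK4/6 KD, and PROCR (10 against 23) with PD0332991. Within the comparison SERPING1 and TFPI2 reached 10 reads only in the library where they were higher. The fibrinolysis genes had 1 higher and 1 lower of 8 in CDK4/6 KD (median -0.21), and 2 higher and none lower of 9 with PD0332991 (median 0.13). SERPINF2, which encodes the plasmin inhibitor antiplasmin, had 2171, 4069, 1389 and 4154 reads. It was 2.83-fold higher in CDK4/6 KD and 1.88-fold higher with PD0332991, and 0.546 between the controls. PLAU and KLKB1, also named after their values were seen, made up the rest, with 6 against 12 reads for PLAU in CDK4/6 KD and, with PD0332991, 26 against 10 for PLAU and 18 against 6 for KLKB1. PLAU in the CDK4/6 KD comparison and KLKB1 in the PD0332991 comparison reached 10 reads only in the library where they were higher.

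The genes of the vitamin K cycle, gamma-carboxylation, sulfation and transport had 1 of 9 higher in CDK4/6 KD and none past 2-fold with PD0332991 (medians 0.09 and 0.05). That gene was FURIN, a proprotein convertase, with 346, 631, 126 and 355 reads. It was 2.66-fold higher than with scrambled siRNA and at 0.828 against DMSO, so that its direction turned with the control. Coagulation receptors and membrane proteases had 2 higher and 1 lower of 7 in each comparison (medians 0.77 and 0.16). HPN encodes hepsin, a hepatocyte surface protease that can activate factor VII, and had 455, 1803, 259 and 890 reads. It was 3.24-fold higher in CDK4/6 KD and 3.97-fold with PD0332991. TMPRSS6, which encodes the hepatocyte surface protease matriptase-2, had 19, 44, 7 and 55 reads. Its fold changes were 6.97 (3.37 to 19.3) in CDK4/6 KD and 2.29 (1.33 to 4.21) with PD0332991. Against scrambled siRNA (55 against 7 reads), the CDK4/6 KD library alone placed TMPRSS6 among the genes tested. Its CDK4/6 KD fold change went from 6.97 to 4.65 with a pseudocount of 5 reads, and to 2.31 against DMSO. Between the controls HPN was at 0.487 and TMPRSS6 at 0.331, and there the DMSO library alone placed TMPRSS6 among the genes tested. F2RL1, which encodes the protease-activated receptor PAR2, was lower in CDK4/6 KD, at 0.288, and with PD0332991, at 0.440.

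Of 11 transcription factors known to act on these genes, 3 were at least 2-fold higher in CDK4/6 KD and none lower (median log2 fold change 0.69), and none passed 2-fold with PD0332991 (median -0.12). They were ONECUT1 (3.40), FOXA1 (2.18) and CEBPB (2.04), all liver-enriched factors, with PD0332991 fold changes of 1.44, 0.544 and 1.29. Between the control libraries they stood at 0.332, 0.479 and 0.754, and against DMSO the CDK4/6 KD fold changes were 1.13, 1.05 and 1.54. HNF4A, named after its values were seen because its motif was searched, was at 1.09 in CDK4/6 KD and at 1.36 with PD0332991. Of the near-identical or overlapping symbols 2 of 7 were tested in each comparison, and 1 was higher in each. In CDK4/6 KD it was FGL1, which encodes a secreted liver protein related to fibrinogen, with 1087, 1041, 1086 and 3199 reads and a fold change of 2.78 (2.60 to 2.99). With PD0332991 FGL1 was at 0.961 (0.882 to 1.05) against DMSO and at 1.13 against scrambled siRNA, and the higher gene was F10-AS1, with 12 against 1 reads. Within that comparison F10-AS1 reached 10 reads with PD0332991 alone, which placed it among the genes tested.

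**Figure D5:**
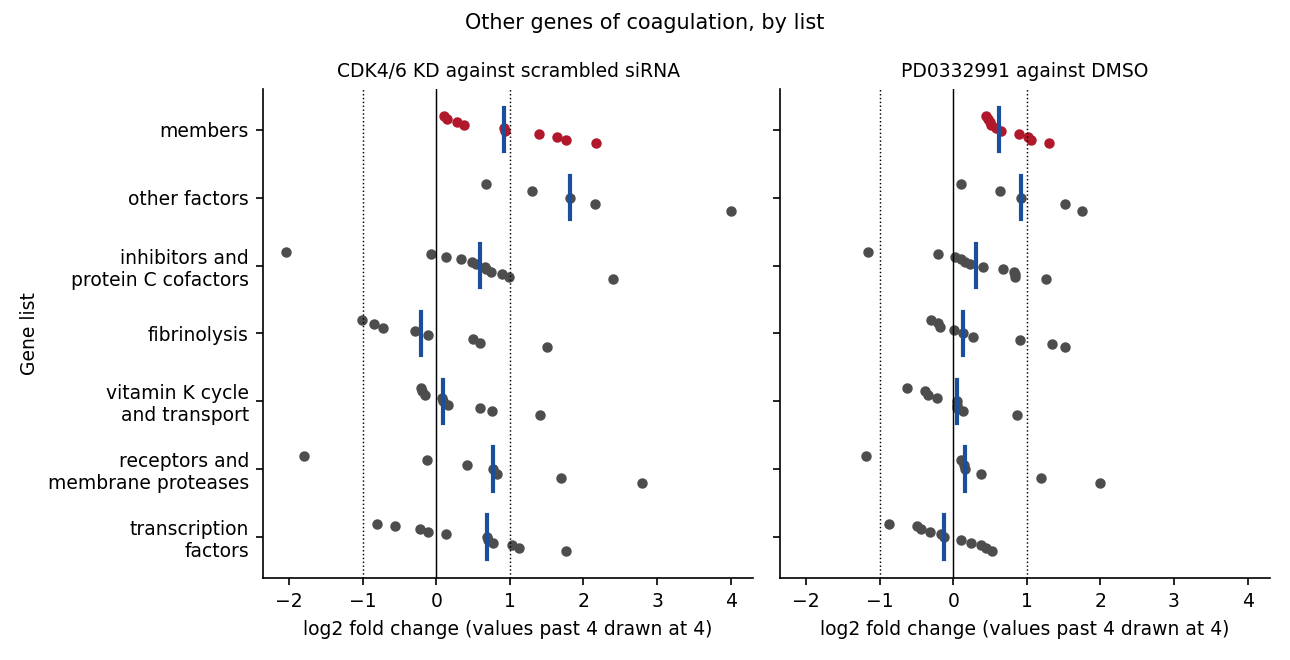
log2 fold change of each gene tested (points) in the clotting genes described here and 6 lists of related genes, in CDK4/6 KD against scrambled siRNA and PD0332991 against DMSO; blue bars are medians, dotted lines mark 2-fold and values past 4 are drawn at 4. Points within a list are spread vertically only for sight. The median of the 10 clotting genes is 0.92 in CDK4/6 KD and 0.62 with PD0332991.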

How the data were processed

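RNA of HepG2 cells was sequenced as QuantSeq 3′ mRNA libraries, 1 per condition, and conditions were taken from the sample labels. The authors deposited whole-number read counts for each symbol, not normalized and not pooled. The submitters' processing notes name Bowtie2, edgeR and hg19. The role of each, the counter, the annotation and the strand setting are not given in the sources used here. For the 286 repeated symbols the counts were added together, leaving 24462 genes, and no entry lacked a name. Library sizes (8983848 to 11176880 reads) were corrected with TMM factors (edgeR 4.0.16, R 4.3.3).

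Genes reaching 10 reads in 1 of the libraries compared were kept, and 0.5 reads, scaled to library size, were added before fold changes were taken. The 95% intervals are exact Clopper-Pearson for fold changes and Wilson for shares (scipy 1.17.1, Python 3.11.15). They cover counting error only. Without replicates the quasi-likelihood test of edgeR could not be fitted, so no p-value is given and differences of 2-fold or more were counted. A count of 0 allows up to 3 reads. Comparisons with the same control library, or with scrambled siRNA in both, share that library's errors. The procedure was tested on simulated data that held counting error alone. Spread between cultures and PCR copies were not simulated, so that test cannot show how far cultures differ.

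The 10 genes and the lists were chosen with earlier results of these data known. Of each other list, up to 5 genes with at least 50 reads in 1 library and 2-fold or more in either main comparison were named, ranked by the interval end nearest to 1. The 5 genes nearest to the fibrinogen sum were named from those with at least 100 reads in every library. Markers shown to check cell types, and genes said to be named after their values were seen, fall outside this rule. Gene positions come from GENCODE 29 (GRCh38) and promoters from RefSeq (GRCh38.p14). No protein sequence was used here. Some listed genes and a motif are not reported here, and the list counts leave them out.

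The alternatives tried were DESeq2 size factors (DESeq2 1.42.0), total counts alone, a pseudocount of 5 reads, a 1.5-fold threshold, a minimum of 50 reads or none, whole intervals past 2-fold, only the most counted entry of a symbol, and the control library of the other arm. The last was applied to the fibrinogen sum after the data were seen. It sets a transfected library against a library given DMSO or PD0332991, so that transfection and inhibition differ together.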

Additional observations from a re-analysis of the deposited data

Results flagged for a closer look

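FOXA1, which encodes a liver-enriched transcription factor, moved in opposite directions in the inhibited libraries when each was set against its own control, with each counting interval on its own side of 1. It was at 2.18 in CDK4/6 KD against scrambled siRNA and at 0.544 with PD0332991 against DMSO. With 1 library per condition the difference between the comparisons was not tested. FOXA1 also differed between the control libraries, at 0.479 in scrambled siRNA against DMSO. With the control of the other arm it was at 1.05 in CDK4/6 KD and at 1.14 with PD0332991, so the opposite directions were lost.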

How the results depend on the processing

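The number of clotting genes at least 2-fold different in CDK4/6 KD was 4 to 6 under every alternative. With PD0332991 it was 3, and became 5 at a threshold of 1.5-fold (FGA, F7, F10, F12 and PROC), 1 where the whole interval had to pass 2-fold (F7), 2 with a pseudocount of 5 reads (F7 and F10) and 4 with the control of the other arm (FGG, F7, F10 and F12). For scrambled siRNA against DMSO it went from 0 to 1 at 1.5-fold (FGG, lower). Over 120 fold changes of the 10 genes under DESeq2 size factors, total counts alone, a pseudocount of 5 reads or the most counted entry, the ratio to the reported value was 0.939 to 1.07 and 0 reversed. With the control of the other arm the ratio was 0.643 to 1.56 over 20 fold changes of the 10 genes, and the fibrinogen sum went from 3.04 to 2.35 in CDK4/6 KD and from 1.45 to 1.88 with PD0332991, an alternative added after seeing the data. That control turned FURIN in CDK4/6 KD to 0.828, and FOXA1 with PD0332991 to 1.14. PLG in CDK4/6 KD (to 0.962) and FGL1 with PD0332991 (to 1.13), whose intervals held 1, also crossed 1. Total counts alone, which leave out the TMM factors, turned CDK6 from 1.04 to 0.994 in scrambled siRNA against DMSO. Why the control libraries differed was not tested. No paired analysis was possible because each condition had 1 library and the labels carry no replicate numbers. A fit that counts both kinds of inhibition as 1 condition was not run. Depth limits F12 (31 to 65 reads) and PLG (21 to 30 reads), and no value here carries the spread between cultures.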
